A study of Mus musculus with 12 samples.

Results

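The genes described here are 10 genes that macrophages use to take up material or that mark their alternative activation: Cd163, Mrc1, Arg1, Chil3, Retnla, Msr1, Marco, Stab1, Mertk and Folr2. They were found by Ensembl identifier among the 54532 genes of an RNA-seq table of cultured mouse bone marrow cells. Cd163 was selected on its own FPKM, since its difference between genotypes reverses between the culture media, so its values are given as a description with no test.

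The cells were mesenchymal stem cells (MSCs) flushed from the long bones of C57BL/6 mice aged 4 weeks and used at passage 3. The control mice carried floxed Chd7 alleles and no Cre (Chd7fl/fl, labelled WT), and the labelled knockout mice were Prx1-cre;Chd7fl/fl. Prx1-cre is active in limb bud mesenchyme and is not known to recombine in blood cells. Cells of each genotype were induced for 5 days in osteogenic medium, with dexamethasone at 10 nM, β-glycerophosphate at 10 mM and ascorbic acid at 50 µM, or in adipogenic medium, with dexamethasone at 1 µM, isobutylmethylxanthine at 0.5 µM and insulin at 10 µg/ml. Each of the 4 groups had 3 libraries. Dexamethasone, a synthetic glucocorticoid, was thus in both media at different concentrations.

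Macrophages exposed to IL-4 or IL-13 signal through IL-4 receptor alpha, JAK kinases and STAT6 and switch on a set of genes that includes Arg1, Chil3, Retnla and Mrc1. IL-10 and glucocorticoids act through other factors and raise scavenger receptors such as Cd163 and the apoptotic-cell receptor Mertk. Classical activation by microbial products or interferon instead raises inflammatory cytokines, and Marco, although a scavenger receptor, is also raised by microbial products. In bone marrow, resident macrophages use several of these receptors to clear dying cells and old erythrocytes.

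Values are FPKM as deposited, fragments on a gene scaled to its exon length and to a factor of each library. That factor did not follow the fragment total alone, since the values were already on a median-ratio scale. The 12 libraries held between 17496257 and 21099548 fragments on genes, as recovered from the FPKM and the exonic lengths. Fold changes are log2 differences of FPKM + 1, which understate the change of low genes. A gene was called at an adjusted p of 0.05 with limma and Benjamini-Hochberg adjustment over the 12871 genes tested. The spread of each gene was shared over all 12 libraries. For genes that varied among adipogenic libraries, the SE and p-value of an osteogenic fold change therefore carry that spread too. Chd7 was at 2.64, 2.67 and 2.77 FPKM in control and 2.03, 2.35 and 2.28 FPKM in labelled knockout osteogenic libraries (log2 fold change -0.20, adjusted p = 0.160). In adipogenic medium it was at 2.26, 1.81 and 2.23 FPKM in control and 2.03, 2.35 and 2.48 FPKM in labelled knockout libraries (0.09, adjusted p = 0.428), so those libraries did not show less Chd7 RNA. Cre removes exon 2 in these mice, and FPKM sums over all exons of the gene, so these levels do not measure the deletion and leave the labels unchecked. The libraries are called labelled knockout throughout.

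The cultures were labelled as MSCs but held abundant macrophage RNA. The 20 macrophage lineage genes listed made up between 3.47% and 6.42% of all FPKM, and none was at 0 in all libraries. Cd68, a lysosomal protein of macrophages, was at 491 to 909 FPKM. Of the 10 mesenchymal genes listed, 8 were among the genes tested. Col1a1 was at 587 to 1073 FPKM. Itgb1 (CD29), a surface marker used to identify these MSCs, had group means of log2(FPKM + 1) between 8.32 and 8.67. Thy1 (CD90), another such marker, was at 0.21 to 1.03 FPKM and Lepr at 0.45 to 1.13 FPKM. The lymphocyte genes Cd3e, Cd3g, Ncr1 and Nkg7 were listed at 0 in all libraries. In bulk RNA, fewer macrophages and less RNA of a gene per macrophage cannot be told apart.

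Control adipogenic replicate 2 stood apart from its group. Its log2 values correlated across genes at a mean r of 0.941 with the other control adipogenic libraries, against 0.981 with the control and 0.983 with the labelled knockout osteogenic libraries. Labelled knockout adipogenic replicate 1 was at a mean r of 0.981 with its own group and 0.955 with the control adipogenic libraries, against 0.937 with those for each of the other labelled knockout adipogenic libraries. The files cannot settle whether a label or a culture was exchanged, and each genotype and medium comparison below takes the groups as labelled. For Cd163, Mrc1, Msr1 and Marco the adipogenic genotype difference is given with and without control adipogenic replicate 2. Leaving out labelled knockout adipogenic replicate 1 enters only counts and ranges over the fits that left out libraries. Genes of the comparison lists are given with both libraries in the fit.

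The sequences of 250 bases before the RefSeq start are shown for Cd163, for Chil3 and Mertk, the 2 tested genes called lower in labelled knockout osteogenic and higher in labelled knockout adipogenic libraries, and for Marco, which had the widest range. They were read from RefSeq on GRCm38.p6, written 5′ to 3′ on the strand of the gene, with motif matches in capitals. Cd163 lay upstream at chr6:124304401-124304650 (+ strand), Chil3 at chr3:106167565-106167814 (- strand), Mertk at chr2:128698665-128698914 (+ strand) and Marco at chr1:120505025-120505274 (- strand).
Cd163: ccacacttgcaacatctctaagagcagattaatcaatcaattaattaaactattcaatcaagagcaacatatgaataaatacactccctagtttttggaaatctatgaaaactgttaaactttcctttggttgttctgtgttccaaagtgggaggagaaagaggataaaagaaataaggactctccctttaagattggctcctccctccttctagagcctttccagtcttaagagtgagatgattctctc
Chil3: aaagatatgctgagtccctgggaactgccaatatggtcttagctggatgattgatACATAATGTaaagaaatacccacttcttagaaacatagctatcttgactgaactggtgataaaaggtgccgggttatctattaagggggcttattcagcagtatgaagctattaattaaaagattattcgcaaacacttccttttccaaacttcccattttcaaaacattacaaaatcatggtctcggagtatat
Mertk: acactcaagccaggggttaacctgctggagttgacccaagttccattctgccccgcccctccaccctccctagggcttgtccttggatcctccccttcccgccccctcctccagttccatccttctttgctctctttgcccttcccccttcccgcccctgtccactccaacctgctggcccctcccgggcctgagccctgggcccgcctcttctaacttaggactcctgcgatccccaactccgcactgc
Marco: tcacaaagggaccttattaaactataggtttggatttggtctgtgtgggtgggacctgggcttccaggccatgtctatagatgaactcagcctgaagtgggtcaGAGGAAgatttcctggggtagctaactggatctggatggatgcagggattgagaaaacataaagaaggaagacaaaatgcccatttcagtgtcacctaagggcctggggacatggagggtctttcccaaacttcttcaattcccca

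Promoters were found for 8 of the 10 genes, and 5 motifs were searched on both strands with no overlap between the matches found. The glucocorticoid receptor core ACANNNTGT was in 5.84% of 32851 promoter windows of the same length, and among the genes described it was only in Chil3, starting 195 bases before the start. The STAT6 palindrome, TTC and GAA with 4 bases between them, was in 5.85% of windows, and Retnla held 1 match. The PU.1 core GAGGAA was in 23.3% of windows, and Mrc1 held 3 matches while Retnla, Marco and Stab1 held 1 each. TTGCNNAA, bound by C/EBP factors, was in 9.56% of windows and in Retnla once, and TGANTCA, bound by AP-1, was in 6.75% of windows and once in 1 of the 2 Folr2 promoters. The Cd163 and Mertk windows held none of these letters, which says nothing of whether the factors act on them.

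Cd163 is the receptor by which macrophages take up haemoglobin bound to haptoglobin. It was at 7.98, 8.18 and 7.46 FPKM in control osteogenic libraries and at 1.44, 1.52 and 1.35 FPKM in labelled knockout osteogenic libraries. The adipogenic libraries were at 2.45, 1.30 and 2.84 FPKM in control and 3.34, 4.53 and 4.41 FPKM in labelled knockout libraries. The genotypes did not overlap in either medium, with the labelled knockout below the control in osteogenic and above it in adipogenic medium. How many of all genes show no overlap was not counted, here or for the genes below. The log2 differences were -1.87 in osteogenic medium (7.87 ± 0.37 against 1.43 ± 0.09 FPKM, SD, n = 3) and 0.70 in adipogenic medium (2.20 ± 0.80 against 4.09 ± 0.65 FPKM), and they differed by 2.56. In the order of levels, control osteogenic libraries were highest and labelled knockout adipogenic libraries next. Control adipogenic and labelled knockout osteogenic libraries overlapped, through control adipogenic replicate 2 (1.30 FPKM) alone. Control adipogenic replicates 1 and 3 (2.45 and 2.84 FPKM) were above all labelled knockout osteogenic libraries. Without control adipogenic replicate 2 the adipogenic difference was 0.48. The values rest on between 134 and 790 fragments per library.

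**Figure D1:**
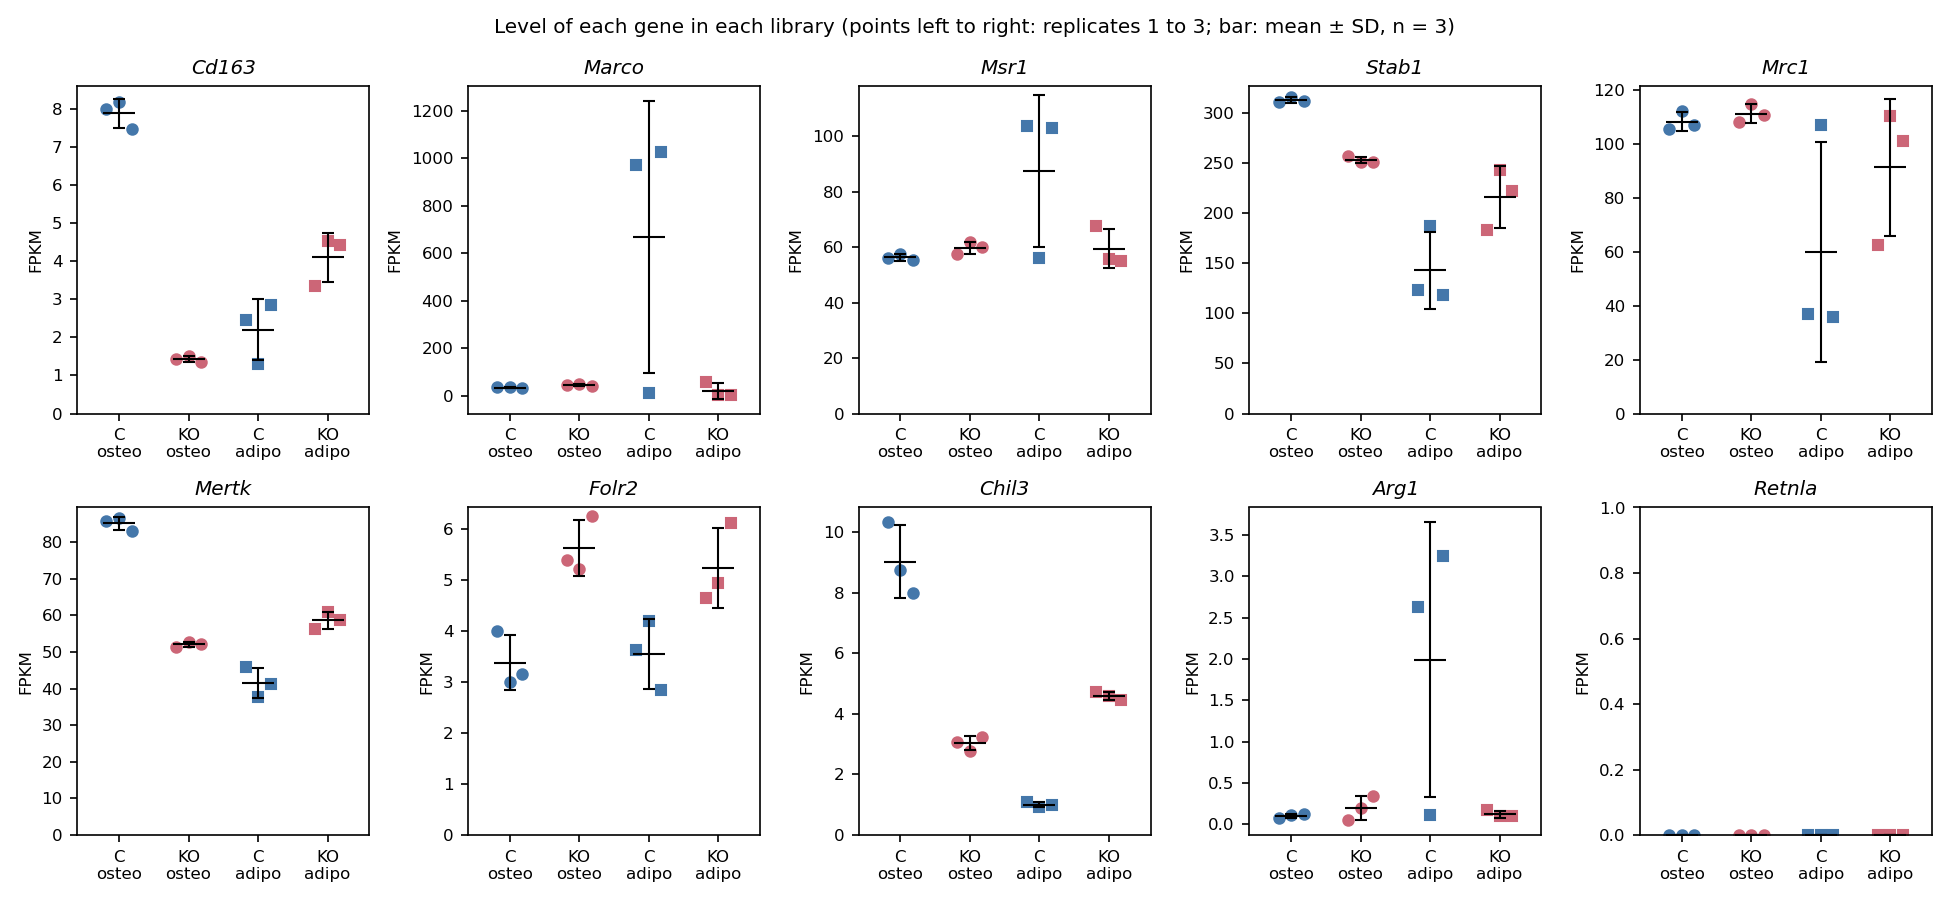
FPKM of each of the 10 genes in each library, on linear axes, by group (C, control; KO, labelled knockout; circles, osteogenic; squares, adipogenic), with the mean ± SD of 3 libraries as bars. Cd163, Chil3 and Mertk were lower in labelled knockout than control osteogenic libraries and higher in adipogenic ones, while Marco reached 971 and 1026 FPKM in 2 control adipogenic libraries and 8.98 FPKM in the other.

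Among the other genes, 7 reached 1 FPKM in 3 or more libraries and were tested, and Arg1 and Retnla did not. In osteogenic medium 1 of the 7 was higher and 2 were lower in labelled knockout libraries, where 4.94% of all genes tested were higher and 4.15% lower. In adipogenic medium 4 were higher and 1 was lower, where 16.7% of all genes tested were higher and 16.5% lower. The counts of the media are not comparable, since the fit shared its spread over groups of unequal spread. For 3 genes the genotype effect was more positive in adipogenic than in osteogenic medium, a difference called positive for 10.9% and negative for 9.58% of all genes. Without control adipogenic replicate 2, all 7 were called in adipogenic medium (with 6569 of all genes) and 6 for the difference between the effects (with 5434 of all genes). The medians over the 7 genes were 0.04 in osteogenic and 0.49 in adipogenic medium, beside -0.01 and -0.01 over all genes.

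Chil3 (Ym1), a secreted chitinase-like protein and classic product of alternatively activated mouse macrophages, also differed in opposite directions in the media. It was at 10.3, 8.75 and 7.97 FPKM in control and at 3.07, 2.78 and 3.23 FPKM in labelled knockout osteogenic libraries. In adipogenic medium it was at 1.08, 0.94 and 0.98 FPKM in control and at 4.73, 4.58 and 4.45 FPKM in labelled knockout libraries. The groups did not overlap in either medium, and control adipogenic replicate 2 lay with the other controls. Chil3 fell by 1.31 (SE 0.08, adjusted p = 2.30e-05) in osteogenic medium and rose by 1.48 (SE 0.08, adjusted p = 2.23e-06) in adipogenic medium. The difference between the effects was 2.79 (SE 0.12, adjusted p = 9.85e-07). The control adipogenic values rest on 26 to 32 fragments per library. Its near-identical neighbour Chil4 was listed at 0 in all libraries, and fragments shared between such copies cannot be assigned with certainty.

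Mertk, a receptor tyrosine kinase that binds apoptotic cells through the bridging proteins Gas6 and protein S, moved the same way at a much higher level. It was at 85.7, 86.6 and 83.0 FPKM in control and at 51.2, 52.7 and 52.3 FPKM in labelled knockout osteogenic libraries. Its adipogenic levels were 45.8, 37.7 and 41.2 FPKM in control and 56.3, 60.9 and 58.6 FPKM in labelled knockout libraries. All labelled knockout osteogenic libraries were below all controls, and all labelled knockout adipogenic libraries were above all controls. The log2 fold change was -0.70 (SE 0.06, adjusted p = 0.000169) in osteogenic and 0.49 (SE 0.06, adjusted p = 0.000360) in adipogenic medium. The difference between the effects was 1.19 (SE 0.09, adjusted p = 2.43e-05). Both effects and their difference passed the test in each of the 12 fits that left out 1 library, for Mertk as for Chil3. Genes called lower in osteogenic medium and also higher in adipogenic medium made up 1.17% of all genes tested, and the opposite pair of calls 1.15%.

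**Figure D2:**
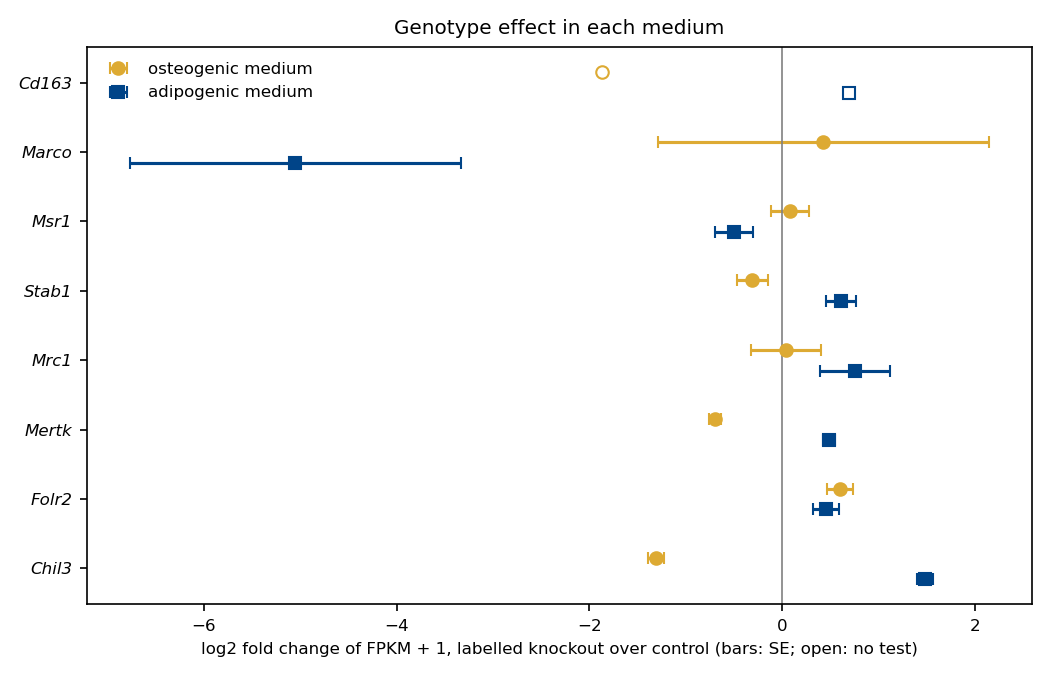
Log2 fold change of FPKM + 1, labelled knockout over control, for the 8 genes that passed the filter on low values, in osteogenic (circles) and adipogenic medium (squares), with SE bars from limma. Open symbols mark Cd163, for which no test was made, and Chil3 and Mertk lie on opposite sides of 0 in the media while the bars of Marco are the widest.

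Stab1 (stabilin-1), an endocytic receptor for modified lipoproteins and matrix fragments, was the most abundant of the genes in osteogenic medium. It was at 311, 316 and 312 FPKM in control and at 257, 251 and 251 FPKM in labelled knockout osteogenic libraries. In adipogenic medium it was at 123, 187 and 119 FPKM in control and at 183, 243 and 223 FPKM in labelled knockout libraries. Labelled knockout libraries were below controls in osteogenic medium, and in adipogenic medium control replicate 2 overlapped labelled knockout replicate 1. The osteogenic fold change was -0.31 (SE 0.16, adjusted p = 0.277), and without control adipogenic replicate 2, which adds to the shared estimate of the spread, the same value had an adjusted p of 0.0262. The adipogenic fold change was 0.62 (SE 0.16, adjusted p = 0.0135), and it missed the threshold without control adipogenic replicate 1 or 3 or labelled knockout adipogenic replicate 2 (adjusted p = 0.0525, 0.0516 and 0.0541). The difference between the effects was 0.92 (SE 0.22, adjusted p = 0.0160). Stab1 overlaps Nt5dc2 on the opposite strand, and since the use of strand is not stated, reads of the pair may not be separated.

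Folr2 (folate receptor beta), a marker of tissue-resident macrophages, was higher in labelled knockout libraries in both media. It was at 3.99, 3.00 and 3.15 FPKM in control and at 5.40, 5.22 and 6.25 FPKM in labelled knockout osteogenic libraries. The adipogenic libraries were at 3.62, 4.20 and 2.83 FPKM in control and 4.65, 4.94 and 6.13 FPKM in labelled knockout libraries. The genotypes did not overlap in either medium. It rose by 0.60 (SE 0.13, adjusted p = 0.0204) in osteogenic and by 0.46 (SE 0.13, adjusted p = 0.0245) in adipogenic medium, and the effects differed by -0.14 (SE 0.19, adjusted p = 0.624). The osteogenic call was lost without control osteogenic replicate 2 or 3 or labelled knockout osteogenic replicate 1 or 3 (adjusted p = 0.0620 to 0.0886). The adipogenic call was lost without control adipogenic replicate 1 or 3 or labelled knockout adipogenic replicate 3 (adjusted p = 0.0542 to 0.0949).

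Mrc1 (CD206), the mannose receptor and a standard marker of alternative activation, overlapped between the genotypes in osteogenic medium. It was at 105, 112 and 107 FPKM in control and at 108, 115 and 111 FPKM in labelled knockout osteogenic libraries (log2 fold change 0.04, SE 0.36, adjusted p = 0.970). In adipogenic medium it was at 36.8, 107 and 35.7 FPKM in control and at 62.6, 110 and 101 FPKM in labelled knockout libraries. Control replicate 2 lay among the labelled knockout libraries, and the other controls lay below all of them. The adipogenic fold change was 0.76 (SE 0.36, adjusted p = 0.132), and without control adipogenic replicate 2 it was 1.27 (adjusted p = 0.000340). Mir511 lies within Mrc1 on the same strand.

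Msr1 (scavenger receptor A), which binds modified lipoproteins and bacteria, was high in the adipogenic libraries where Mrc1 was low. It was at 55.9, 57.7 and 55.4 FPKM in control and at 57.4, 61.8 and 60.0 FPKM in labelled knockout osteogenic libraries (log2 fold change 0.08, SE 0.20, adjusted p = 0.861). Its adipogenic levels were 104, 55.9 and 103 FPKM in control and 67.7, 55.8 and 55.1 FPKM in labelled knockout libraries. Control replicate 2 again lay with labelled knockout replicates 2 and 3, and the other controls were above every labelled knockout library. The adipogenic fold change was -0.50 (SE 0.20, adjusted p = 0.0744), and without control adipogenic replicate 2 it was -0.79 (adjusted p = 2.58e-05).

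Marco, a scavenger receptor for bacteria and particles, had the widest range. It was at 34.8, 36.0 and 30.4 FPKM in control and at 45.4, 49.6 and 42.1 FPKM in labelled knockout osteogenic libraries (log2 fold change 0.43, SE 1.72, adjusted p = 0.925). The adipogenic libraries held 971, 8.98 and 1026 FPKM in control and 58.0, 1.16 and 1.15 FPKM in labelled knockout libraries. Both of these groups held libraries far apart, and control replicate 2 lay within the range of the labelled knockout libraries. The adipogenic fold change was -5.05 (SE 1.72, adjusted p = 0.0458), and the call was lost in 10 of the 12 fits that left out 1 library (adjusted p up to 0.154). Without control adipogenic replicate 2 it was -7.27 (adjusted p = 0.000569). With the spread of the 6 osteogenic libraries alone, the osteogenic fold change of 0.43 had an adjusted p of 0.00956. The difference between the effects was -5.48 (SE 2.43, adjusted p = 0.139).

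Arg1, arginase 1, which turns arginine into ornithine and urea, was above 1 FPKM in 2 libraries. It was at 0.07, 0.11 and 0.13 FPKM in control and at 0.05, 0.20 and 0.35 FPKM in labelled knockout osteogenic libraries. Its adipogenic levels were 2.62, 0.11 and 3.24 FPKM in control (96, 5 and 117 fragments) and 0.17, 0.10 and 0.09 FPKM in labelled knockout libraries (7, 4 and 4 fragments). The high libraries were the same control adipogenic replicates 1 and 3 that were high in Marco and Msr1. Nos2, the inducible nitric oxide synthase that uses the same substrate in classical activation, was at 26.8, 0.04 and 21.0 FPKM in the control adipogenic libraries, and it was chosen after its values were seen.

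Retnla (Fizz1), a secreted product of IL-4 or IL-13 exposure, was listed at 0 in all 12 libraries. A count of 3 fragments would correspond to 0.239 to 0.309 FPKM, for counting error only. S100a9 was also listed at 0 in all libraries while its partner S100a8 reached 86.0 FPKM, so a listed 0 is given here as such and not as absence. The paralog Retnlg was at 0.09 FPKM in labelled knockout adipogenic replicate 1 and listed at 0 in the others.

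**Figure D3:**
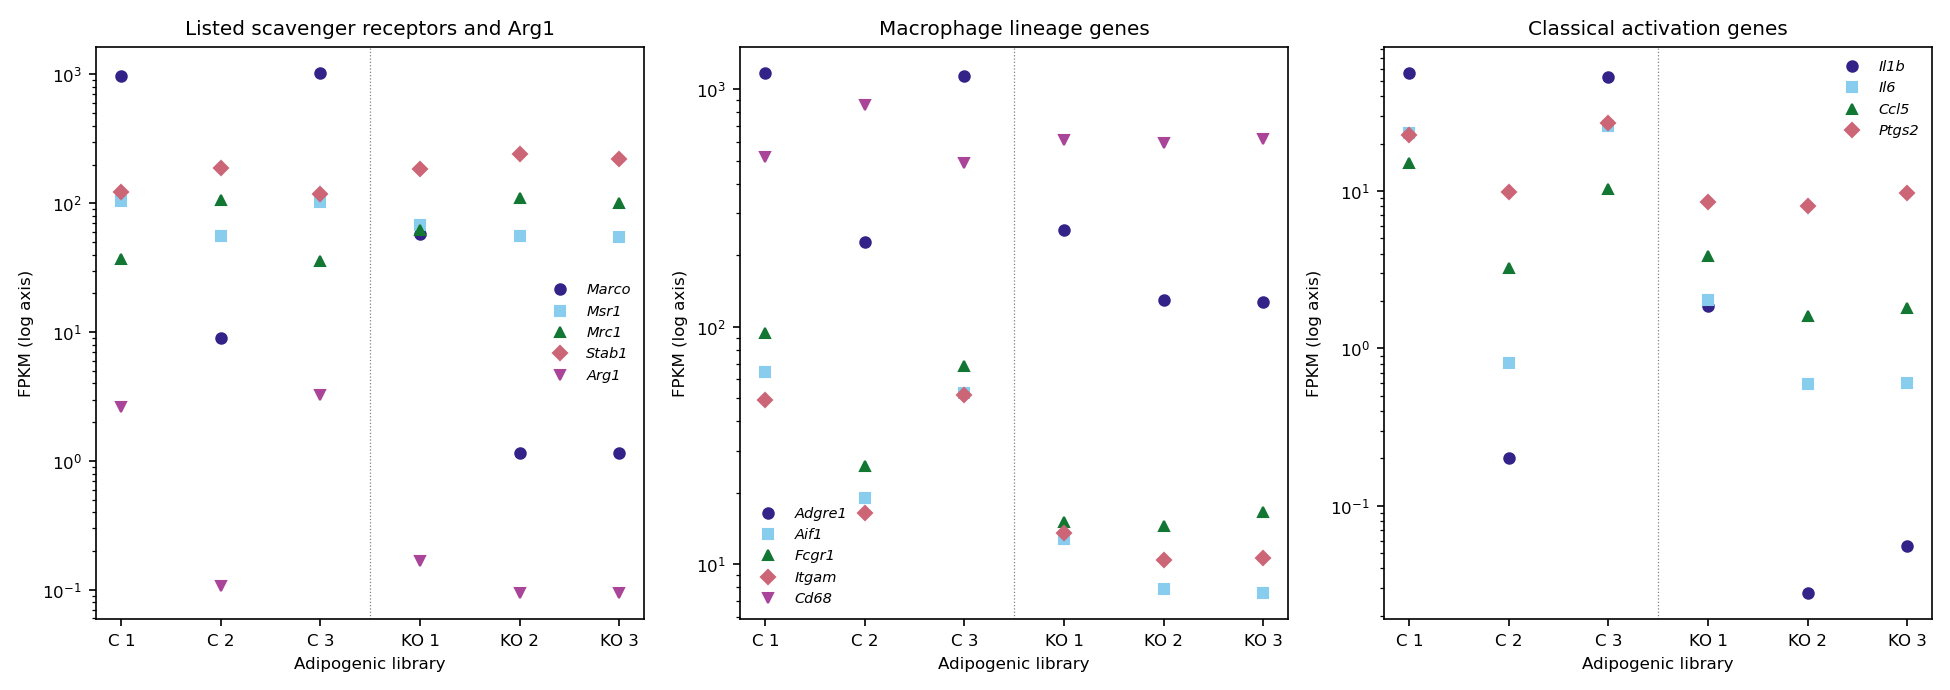
FPKM on a log axis in the 3 control (C) and 3 labelled knockout (KO) adipogenic libraries, for 5 of the genes described, 5 macrophage lineage genes and 4 classical activation genes, each library at its own position. Marco and Msr1 were lower and Mrc1 and Stab1 higher in control replicate 2 than in control replicates 1 and 3, and Il1b was at 56.4, 0.20 and 53.1 FPKM in these controls.

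Macrophage lineage and inflammatory genes also differed between the adipogenic libraries, in both directions. Of 20 lineage genes, 2 were higher and 11 lower in labelled knockout adipogenic libraries, where 16.7% of all genes were higher and 16.5% lower. In osteogenic medium 1 was higher and 5 lower, where 4.94% of all genes were higher and 4.15% lower. The counts of the media are not comparable, since the fit shared its spread over groups of unequal spread. Adgre1 (F4/80) was at 1171, 227 and 1136 FPKM in control and at 255, 130 and 127 FPKM in labelled knockout adipogenic libraries (-2.05, adjusted p = 0.0156). Aif1 (-2.03, adjusted p = 0.00233), Fcgr1 (-1.78, adjusted p = 0.00448) and Itgam (-1.53, adjusted p = 0.00696) were also lower. The 2 higher genes were C1qa (0.67, adjusted p = 0.000518) and C1qb (0.36, adjusted p = 0.00709), subunits of complement C1q, and Cd68 was at 0.01 (adjusted p = 0.967). The lineage genes summed to 22455, 12563 and 22075 FPKM in control and to 11920, 10274 and 10523 FPKM in labelled knockout adipogenic libraries, so control replicate 2 was nearer the labelled knockout libraries. Of 16 classical activation genes 11 were tested, and 1 was higher and 6 lower in labelled knockout adipogenic libraries. Il6 was at 23.4, 0.81 and 25.8 FPKM in control and at 2.02, 0.59 and 0.61 FPKM in labelled knockout adipogenic libraries (-2.42, adjusted p = 0.0468). Ccl5 (-1.48, adjusted p = 0.0247) and Ptgs2 (adjusted p = 0.0187) were also called lower. The higher gene was Cd80, a costimulatory ligand for T cells (0.85, adjusted p = 6.50e-06). The part of these genes in the differences of Marco, Msr1, Mrc1 and Stab1 was not tested.

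Scaled to the macrophage lineage, the adipogenic ratios of Cd163, Chil3 and Mertk were wider, as were those of Mrc1, Stab1 and Folr2. The lineage sum that these ratios share was lower in labelled knockout adipogenic libraries. Per 1000 FPKM of the 20 lineage genes, Cd163 was at 0.403 to 0.444 in control and 0.0718 to 0.0802 in labelled knockout osteogenic libraries. In adipogenic medium it was at 0.104 to 0.129 in control and 0.281 to 0.441 in labelled knockout libraries, and control replicate 2 lay with its group. The log2 ratios of group means on this scale were -2.51 and 1.74 for Cd163, -1.63 and 2.92 for Chil3, and -0.76 and 1.23 for Mertk, in osteogenic and adipogenic medium. The adipogenic ratios were 1.12 for Mrc1, 1.22 for Stab1 and 1.22 for Folr2. The ratios leave out the added 1, so they are not on the scale of the fold changes above. For Mrc1 control replicate 2 was at 8.52, within the labelled knockout range of 5.25 to 10.7, and the other controls were at 1.64 and 1.62. For Stab1 it was at 14.9, near labelled knockout replicate 1 (15.4), and the other controls were at 5.48 and 5.37. For Folr2 it was at 0.335, below all labelled knockout libraries. Msr1 turned from lower to higher in adipogenic medium on this scale (0.25), with 4.45 to 4.67 in control and 5.24 to 5.68 in labelled knockout libraries. For Marco the adipogenic ratio remained negative at -4.15, while control replicate 2 (0.715) lay within the labelled knockout range of 0.109 to 4.86. The sum is carried by a few abundant genes such as Lyz2, so these ratios describe a scale and carry no test.

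**Figure D4:**
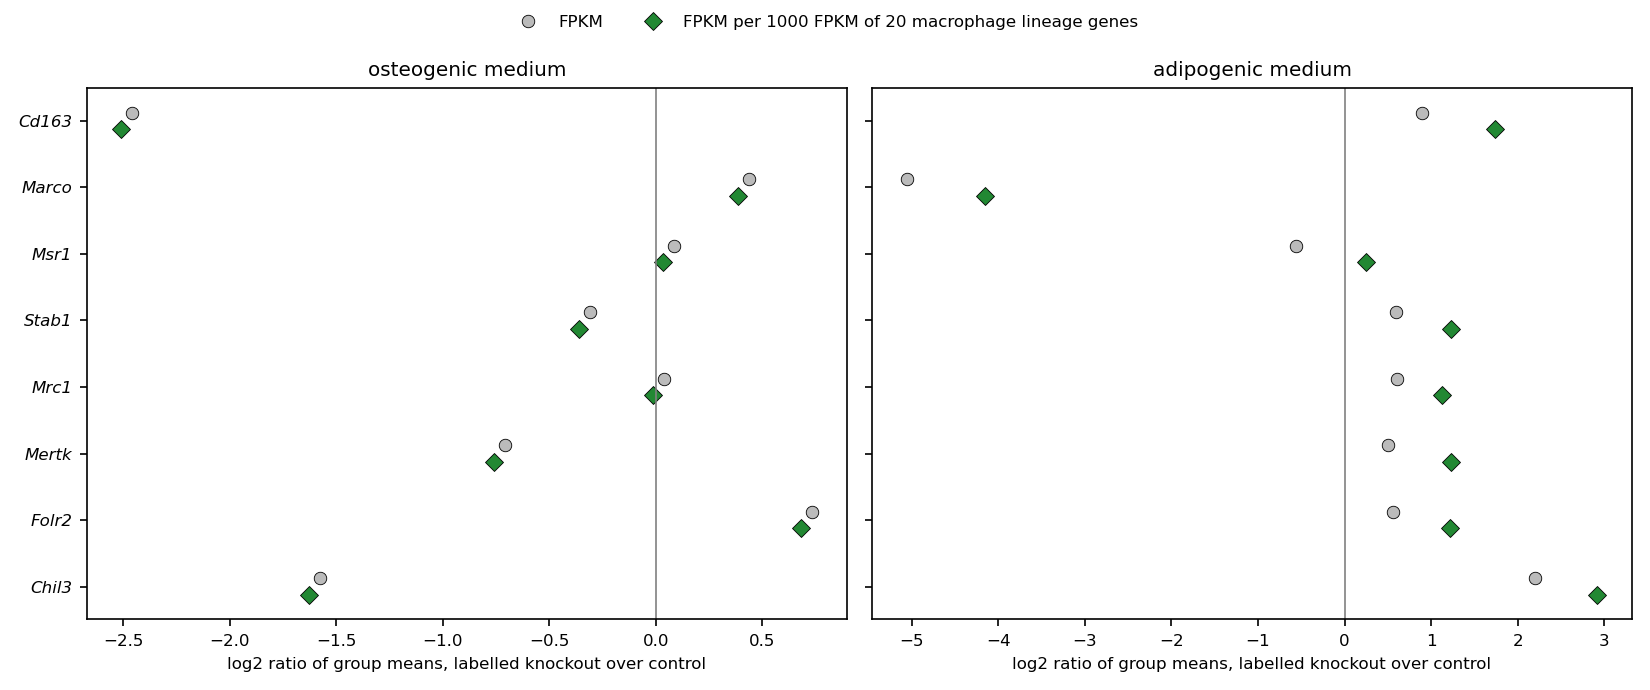
Log2 ratio of group means, labelled knockout over control, for the 8 genes that passed the filter on low values, as FPKM (circles) and per 1000 FPKM of the 20 macrophage lineage genes (diamonds), by medium and on separate horizontal axes. The adipogenic points of all 8 genes lie further to the right on the lineage scale, and that of Msr1 crosses 0 to 0.25.

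The medium was compared within each genotype. In control libraries 3 of the 7 genes were lower and none higher in adipogenic than in osteogenic medium, where 10.5% of all genes were higher and 12.3% lower. Chil3 fell by 2.32 (adjusted p = 7.98e-07), Stab1 by 1.16 (adjusted p = 0.00130) and Mertk by 1.02 (adjusted p = 3.02e-05), and Cd163 differed by -1.50 as a description. Without control adipogenic replicate 2, Mrc1 was also lower (-1.55, adjusted p = 0.000108), and Msr1 (0.87, adjusted p = 1.95e-05) and Marco (4.85, adjusted p = 0.00652) were higher. In labelled knockout libraries 1 of the 7 was higher and none lower, where 13.9% of all genes were higher and 14.0% lower. That gene was Chil3 (0.47, adjusted p = 0.00217), and Cd163 differed by 1.06. Mertk was at 0.17 (adjusted p = 0.0719), and without control adipogenic replicate 2, which narrows the shared spread, the same value had an adjusted p of 0.0127. The control and labelled knockout comparisons share no library.

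Some genes known to be induced by glucocorticoids also changed in opposite directions in the media. Of the 14 listed, which include the receptor gene Nr3c1, 6 were lower and none higher in labelled knockout osteogenic libraries. In labelled knockout adipogenic libraries 12 were higher and 1 lower, and the medians were -0.28 and 0.99. The 6 lower genes were among the 12 higher ones, and the rest of the 12 were not called in osteogenic medium. Fkbp5, which encodes a co-chaperone of the glucocorticoid receptor, was at 30.6, 32.6 and 31.3 FPKM in control and at 6.90, 6.29 and 6.19 FPKM in labelled knockout osteogenic libraries. The adipogenic libraries held 3.91, 5.46 and 3.69 FPKM in control and 29.9, 42.8 and 41.9 FPKM in labelled knockout libraries, with control replicate 2 among the controls. The difference between its genotype effects was 5.00 (adjusted p = 9.85e-07), and for Tsc22d3 (GILZ) it was 3.93, for Zbtb16 3.19 and for Klf9 2.42. In control libraries 6 of the 14 were lower and none higher in adipogenic than in osteogenic medium. In labelled knockout libraries 12 were higher and 1 lower. The media differ in dexamethasone concentration and in their other additives, so this comparison cannot separate them. The gene for the glucocorticoid receptor itself, Nr3c1, was the lower gene in both counts that had 1 lower. The list was drawn up with earlier results of these data known, and the part of dexamethasone in the differences of Cd163, Chil3 and Mertk was not tested.

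**Figure D5:**
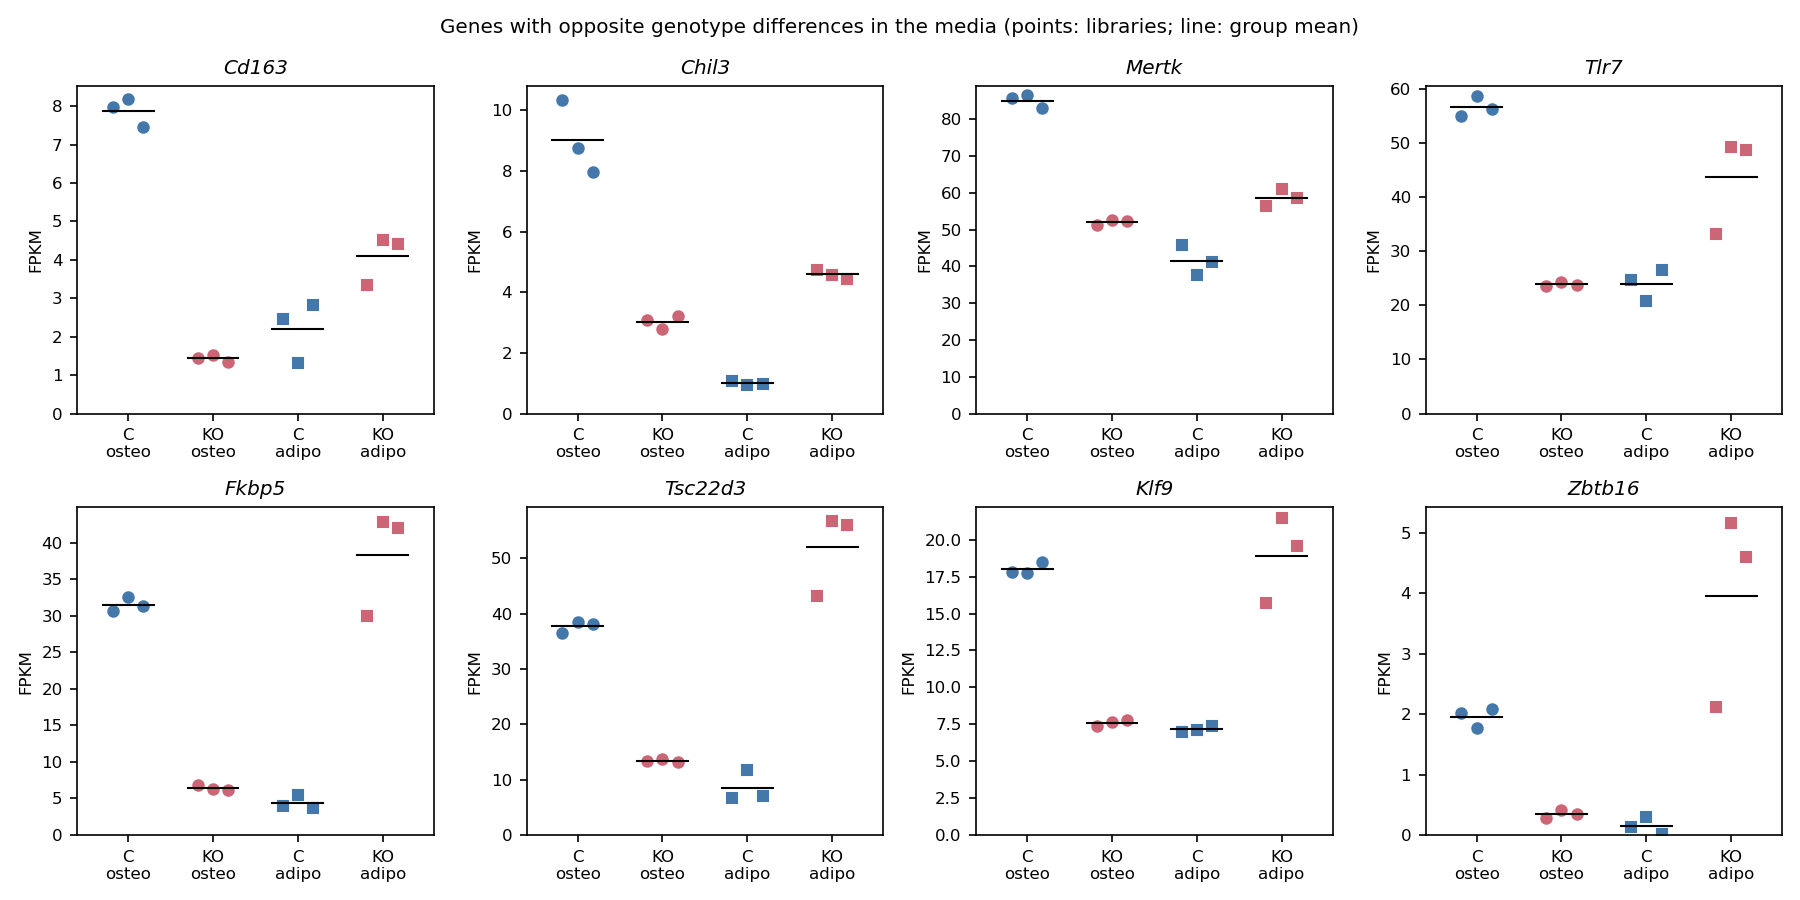
FPKM of Cd163, Chil3, Mertk and Tlr7 (upper row) and of the glucocorticoid-induced genes Fkbp5, Tsc22d3, Klf9 and Zbtb16 (lower row) in each library, on linear axes, with lines at the group means of 3 libraries. In each panel control osteogenic and labelled knockout adipogenic libraries are higher than the other genotype in the same medium, as for Fkbp5, at 29.9 to 42.8 FPKM in labelled knockout adipogenic libraries.

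The 10 genes with the pattern most like Cd163, by Pearson's r of log2(FPKM + 1) over the 12 libraries, were Kcnk6 (0.961), Tlr7 (0.960), Tnfrsf11a (0.956), Ap3d1, Klhl24, Adam8, Rac1, Mbd6, Slc9a3r1 and Atp6v1b2 (0.946). These libraries fall into 4 groups of 3, so r mostly reflects the order of the groups. Tlr7, a receptor for single-stranded RNA in endosomes, had group means of 56.7 and 24.0 FPKM in control and labelled knockout osteogenic libraries and of 24.0 and 43.8 FPKM in the adipogenic ones. Tnfrsf11a encodes RANK, the receptor that drives osteoclast formation. Of the genes described, Mertk (0.863) and Chil3 (0.788) were most like Cd163, followed by Stab1 (0.438) and Mrc1 (0.121). Marco (-0.194), Msr1 (-0.222) and Folr2 (-0.490) were negative.

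Of the ligands upstream of alternative activation, Il4 was at 0.546 to 2.27 FPKM and Il13 at most at 0.102 FPKM in any library. Il10 was not called in osteogenic (-0.12, adjusted p = 0.944) or adipogenic medium (-1.33, adjusted p = 0.134). Of 9 ligand and receptor genes 7 were tested, and none was higher while 1 was lower in osteogenic and 4 were lower in adipogenic labelled knockout libraries. The gene lower in osteogenic medium was Il10rb, a subunit of the IL-10 receptor (-0.30, adjusted p = 0.0296). The 4 in adipogenic medium were Il2rg, the common gamma chain (-1.64, adjusted p = 0.0236), Il10ra (-0.71, adjusted p = 0.00726), Il13ra1 (-0.68, adjusted p = 0.0205) and Il4ra (-0.34, adjusted p = 0.00298), which was at 0.21 in osteogenic medium (adjusted p = 0.0678). Il2rg was at 26.5, 7.41 and 23.4 FPKM in control and at 10.2, 2.49 and 3.79 FPKM in labelled knockout adipogenic libraries, so its high libraries were again control replicates 1 and 3.

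Of 15 signalling and transcription factor genes 13 were tested, and 1 was lower in osteogenic medium while 2 were higher and 2 lower in adipogenic medium. Maf, a transcription factor of mature macrophages, was the lower gene in osteogenic medium (-0.45, adjusted p = 0.0261). In adipogenic medium Irs2, an adaptor of the IL-4 and insulin receptors, was higher (0.95, adjusted p = 0.00233), as was Klf4, a partner of STAT6 (0.56, adjusted p = 0.0146). Socs1, an inhibitor of JAK kinases (-0.91, adjusted p = 0.0471), and Jak1 (-0.19, adjusted p = 0.0421) were lower. The median of the 13 genes was -0.13 in osteogenic and -0.02 in adipogenic medium.

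Other targets of alternative activation did not follow Chil3. Of 16 such genes 9 were tested, and 2 were higher in osteogenic medium, Ear2, an eosinophil-type ribonuclease (1.06, adjusted p = 0.0413), and Fn1, fibronectin (0.37, adjusted p = 0.0120). In adipogenic medium 2 were lower, Hmox1, which degrades haem (-1.64, adjusted p = 0.0149), and Tgm2, a transglutaminase (-0.86, adjusted p = 0.000691). Hmox1 was at 2208, 565 and 2236 FPKM in control and at 532, 389 and 443 FPKM in labelled knockout adipogenic libraries, so it followed the libraries high in Marco.

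Among 19 other scavenger and apoptotic-cell receptors and their ligands, 13 were tested. In osteogenic medium 3 were higher and 1 lower, and in adipogenic medium 4 were higher and 3 lower. Scara3, a member of the class A scavenger receptor family, was higher in osteogenic (0.69, adjusted p = 0.000397) and lower in adipogenic labelled knockout libraries (-0.27, adjusted p = 0.0154), directions opposite to those of Chil3 and Mertk. The difference between its effects was -0.95 (adjusted p = 0.000176). Scarb1, a receptor for high-density lipoprotein, was lower in osteogenic medium (-0.40, adjusted p = 0.0362), and Mfge8, a bridging protein for apoptotic cells, was higher (0.24, adjusted p = 0.0388). Gas6, the ligand of Mertk, was at 109, 436 and 108 FPKM in control and at 424, 532 and 539 FPKM in labelled knockout adipogenic libraries (1.51, adjusted p = 0.0215), again with control replicate 2 apart from its group. Axl, a receptor of the same family, was higher in both media (0.26, adjusted p = 0.0118, and 0.36, adjusted p = 0.000626). Cd36, a fatty acid and lipoprotein receptor, was lower in adipogenic labelled knockout libraries (-1.35, adjusted p = 0.000100), as was Cxcl16, a scavenger receptor and chemokine (-1.18, adjusted p = 0.0292).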

How the data were processed

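Total RNA of 12 cultures was sequenced on an Illumina HiSeq after NEBNext Ultra library preparation, 3 libraries for each of 2 genotypes in each of 2 media, grouped by their labels. The authors deposited 1 table of FPKM per gene and library. The submitters' processing notes name Bowtie 0.12.2 and the mouse build mm9, while the paper lists HISAT2 and Ballgown, and the counting, strand and gene filters are not given in the sources used here. Rescaling these values by median ratios moved the median of all genes by 0.000147 or less in the genotype contrasts (log2), so they were already on that scale. GENCODE M21 (GRCm38) gave a symbol to 99.9% of the gene identifiers, and promoter sequences come from RefSeq on GRCm38.p6.

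For each library the FPKM of 1 fragment was estimated from low values and exonic lengths, which gave 17496257 to 21099548 fragments on genes. Genes with at least 1 FPKM in at least 3 libraries (12871) entered a limma fit (version 3.58.1, R 4.3.3) of 4 group means to log2(FPKM + 1), moderated along the mean-variance trend, and p-values were adjusted by Benjamini-Hochberg at 0.05. The contrasts were genotype within each medium, their difference, and medium within each genotype. The fit was tested on simulated data with equal spread in all groups and changes only in labelled knockout osteogenic libraries. That test does not cover the unequal spread of the groups here. All 10 genes were named in every library, with Chd7, the paralogs Chil4 and Retnlg, at most 4 genes of each other list (the largest changes among those called), genes that mark a cell type, and the 10 genes most like Cd163. A gene that this rule would name is not reported here. The members and lists were chosen with earlier results of these data known. The labels do not say whether libraries came from separate animals, so p-values measure the spread between these libraries. That spread was shared over all 4 groups, so osteogenic p-values also carry the spread of the adipogenic libraries. Alternatives were a pseudocount of 0.1, no filter, equal sums of FPKM, median ratios, the 6 compared libraries alone, a replicate block and leaving out each library. A voom fit on recovered fragments and leaving out control adipogenic replicate 2 with labelled knockout adipogenic replicate 1 were chosen after seeing the data. Figures were drawn with matplotlib 3.10.9 in Python 3.11.15.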

Additional observations from a re-analysis of the deposited data

Results flagged for a closer look

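For 3 of the 7 genes tested, the genotype effect in adipogenic medium differed from that in osteogenic medium by the interaction term of the limma fit. Over all genes tested this term was called positive for 10.9% and negative for 9.58%. The difference was 2.79 on the log2 scale for Chil3, 1.19 for Mertk and 0.92 for Stab1. For Cd163 every labelled knockout library was below the controls in osteogenic medium and above them in adipogenic medium, with a difference between the effects of 2.56, which was not tested because this reversal was the reason for its inclusion.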

How the results depend on the processing

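With equal sums of FPKM, the median of all genes moved by 0.16 in the adipogenic genotype effect, 0.17 in the interaction and -0.11 in the control medium effect, and 526 genes were called in osteogenic medium, against 1170 in the fit reported. With only the 6 libraries compared, 5 of the 7 genes and 3418 of all genes were called in osteogenic medium. In adipogenic medium 2 of the 7 and 1671 of all genes were called. The order of the media was thus the reverse of the fit reported, which had more calls in adipogenic medium. In the same setting 490 of all genes were called for medium in control libraries. For medium in labelled knockout libraries, 2 of the 7 and 4808 of all genes were called. With no filter 3 of the 7 and 3808 of all genes were called in adipogenic medium, and with voom 2 of the 7 and 3410 of all genes for medium in labelled knockout libraries. Without control adipogenic replicate 2 and labelled knockout adipogenic replicate 1 together, 5 of the 7 and 3577 of all genes were called in osteogenic medium, 6692 of all genes in adipogenic medium, 6 and 5902 for the interaction, 6 and 6466 for medium in control libraries, and 5 and 5463 for medium in labelled knockout libraries. Leaving out 1 library at a time, the genes called of 7 ranged from 2 to 4 (osteogenic), 2 to 7 (adipogenic), 3 to 6 (interaction), 3 to 6 (medium, control) and 1 to 3 (medium, labelled knockout), and of all genes from 532 to 2854, 2791 to 6569, 1798 to 5434, 1361 to 6156 and 2500 to 5466. These highest counts all came without control adipogenic replicate 2.

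The shared replicate numbers did not pair the samples: the deviations of same-numbered libraries correlated at -0.04, 0.06 and -0.03 in osteogenic and at 0.47, 0.40 and -0.29 in adipogenic medium. With the replicate block 744 genes were called in osteogenic medium and 1943 for medium in control libraries, and the calls of Folr2 were lost (adjusted p = 0.0804 and 0.0651). Per median lineage gene in place of their sum, the osteogenic log2 ratios of Mrc1 (0.37) and Stab1 (0.0245) were reversed. Those of Cd163 (-2.12), Chil3 (-1.24) and Mertk (-0.38) kept their sign and were smaller in size. The ratios of Msr1 (0.42), Marco (0.77) and Folr2 (1.07) kept their sign and were larger. By Spearman's rho, 3 of the 10 genes most like Cd163 were the same. No called log2 fold change of the 7 genes changed sign under these alternatives. Values near 0 that were not called did, for medium in Msr1 (labelled knockout, -0.01) and Folr2 (control, 0.05) and for the interaction in Folr2 (-0.14), and the cause of the changes above was not tested.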

Other observations

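Genes of other cell types changed as well. Of 8 mesenchymal genes tested, 4 were higher and none lower in labelled knockout osteogenic libraries, led by Cxcl12, a chemokine of marrow stroma (0.64, adjusted p = 0.00230). In adipogenic medium 4 were higher and 1 lower, with Pdgfrb, a receptor of perivascular stroma, at 0.82 (adjusted p = 0.000126) and Cxcl12 lower at -0.39 (adjusted p = 0.00932). Of 5 endothelial genes tested, 3 were higher in labelled knockout libraries in each medium and none lower, and Cdh5, the cadherin of endothelial junctions, was at 0.55 to 0.72 FPKM in control and 2.55 to 3.15 FPKM in labelled knockout osteogenic libraries. The 8 endothelial genes summed to at most 13.1 FPKM in any library.

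Of the 8 neutrophil genes only S100a8 was tested, and it was at 65.8, 2.48 and 86.0 FPKM in control and at 1.99, 1.22 and 1.82 FPKM in labelled knockout adipogenic libraries (-3.36, adjusted p = 0.0220), high in control replicates 1 and 3 as Marco and Arg1 were. Of 4 osteoclast genes tested, none was called in osteogenic medium, where 1 (Ctsk) had an unadjusted p under 0.05 in the limma fit, and Mmp9 was lower in adipogenic medium (-0.79, adjusted p = 0.0398). Mcpt8, a basophil protease, was the only gene tested of its list of 8 and was lower in labelled knockout adipogenic libraries (adjusted p = 0.00184). The lymphocyte genes were all under 1 FPKM in every library.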
